A study of Mus musculus with 10 samples.

Results

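The 10 genes described here, *Btg4*, *Cnot6l*, *Cnot7*, *Cpeb1*, *Ybx2*, *Dazl*, *Zar1*, *Patl2*, *Lsm14b* and *Pabpc1l*, encode proteins that store, translate or remove maternal mRNA in the oocyte. Their H3K4me3 was read from every 5 kb window whose written gene name was one of the 10, which gave 75 of 544879 windows. The windows fell on *Cpeb1* (22), *Cnot6l* (19), *Patl2* (14), *Pabpc1l* (6), *Lsm14b* (4), *Dazl* (4), *Zar1* (2), *Ybx2* (2), *Btg4* (1) and *Cnot7* (1). The table wrote 1 gene name per window, so *Btg4* and *Cnot7*, whose annotated bodies span 12 and 6 windows, are represented by 1 window each, and the remaining windows of both genes carry the names of neighbouring genes or none.

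H3K4me3 was profiled by ULI-nChIP-seq, a native precipitation of nuclease-digested chromatin from few cells, in fully grown germinal vesicle (GV) oocytes of 21-day-old females, C57BL6 in the labels and C57BL/6OlaHsd in the methods of the study. The *Setd1b* cKO group (N = 3, replicates 1, 3 and 4) was *Setd1b* floxed/floxed and *Gdf9*-Cre positive, and the WT group (N = 3, replicates 1, 2 and 4) was labelled *Setd1b* floxed/floxed and *Gdf9*-Cre negative. The methods of the study also count Cre-positive females with 1 deleted and 1 intact allele as WT, and the labels place none of these among the libraries. *Setd1b* encodes an H3K4 methyltransferase, and the *Gdf9* promoter drives Cre in oocytes from early follicle growth, so the mark laid down before that time was made with the gene intact. Each library came from a pool of about 200 oocytes and input chromatin was sequenced for 2 libraries of each genotype. The labels call the libraries biological replicates without giving the females behind each pool.

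A growing oocyte transcribes and stores the mRNAs that it will use after its genome falls silent. RNA-binding proteins hold these mRNAs in a repressed state with short poly(A) tails, cytoplasmic polyadenylation activates a part of them during meiotic maturation, and the CCR4-NOT deadenylase, recruited by adaptor proteins, then removes most of them. H3K4me3 marks promoters of transcribed genes, and in oocytes it also covers broad regions away from promoters.

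Values are enrichment-normalized RPKM, a linear scale on which the 40th percentile (1.23) and the 99th percentile (6.77) of windows are the same in all 6 H3K4me3 libraries. The libraries held 10856015 to 32775874 reads in windows, and a median window held 11 to 47 reads. As a measure of enrichment before normalization, the read number at the 99th percentile of windows was divided by the median read number. This ratio was 2.95 in cKO replicate 3 and 3.30 in cKO replicate 4, and 4.38 to 9.82 in the other libraries, so these 2 cKO libraries were the least enriched. The mark around the annotated start of *Setd1b* itself was 4.36 ± 0.385 normalized RPKM in cKO and 7.11 ± 0.861 in WT (SD, n = 3, limma adjusted p = 0.0332), which is no direct check of the deletion. This window is named for *AI480526*, whose start it also holds, and leaving out any library but cKO replicate 1 ended the call (up to 0.128). In WT, the windows of 12 oocyte marker genes ranged from 3.72 to 7.79 normalized RPKM (median 5.61), those of 12 granulosa cell markers from 0.870 to 5.90 (median 3.75) and those of 3 blood markers from 1.29 to 2.77. In cKO, the medians were 5.04 for the oocyte markers, 4.31 for the granulosa cell markers and 1.18 for the blood markers. Over the oocyte markers, the differences ran from −2.65 (*Zp2*) to 3.24 (*Gdf9*) with a median of −0.13, and 0 of 12 were called (lowest adjusted p = 0.0598). Only the cKO group carried *Gdf9*-Cre, and the part of this transgene in the *Gdf9* value was not tested. The median difference was 0.75 over the granulosa cell markers, 11 of 12 of which had the higher mean in cKO and 1 of which, *Foxl2*, was called as a gain (4.21 in WT and 7.06 in cKO, limma adjusted p = 0.0415). The part of the granulosa cell markers in the results below was not tested. H3K4me3 is no measure of expression, and promoters of genes silent in oocytes can also carry it.

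The promoter sequences of 5 of the genes are shown because they span the range of CpG content at these starts. The first 4 belong to the genes whose GENCODE start window had the lowest unadjusted p-values, and the fifth, *Btg4*, had the smallest difference between genotypes at its RefSeq start window. Each run is the 250 bases before the gene start in RefSeq (GRCm38.p6), 5′ to 3′ on the strand of the gene, with every CG in capitals. The positions are chr2:180024737-180024986 (plus strand) for *Lsm14b*, chr5:96161991-96162240 (minus strand) for *Cnot6l*, chr11:69935649-69935898 (plus strand) for *Ybx2*, chr2:164024974-164025223 (plus strand) for *Pabpc1l* and chr9:51115751-51116000 (plus strand) for *Btg4*.
Lsm14b: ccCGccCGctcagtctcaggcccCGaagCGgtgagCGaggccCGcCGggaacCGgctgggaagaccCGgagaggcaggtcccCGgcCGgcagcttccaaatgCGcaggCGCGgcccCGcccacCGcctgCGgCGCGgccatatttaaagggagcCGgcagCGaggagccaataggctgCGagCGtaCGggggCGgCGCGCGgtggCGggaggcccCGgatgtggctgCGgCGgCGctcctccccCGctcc
Cnot6l: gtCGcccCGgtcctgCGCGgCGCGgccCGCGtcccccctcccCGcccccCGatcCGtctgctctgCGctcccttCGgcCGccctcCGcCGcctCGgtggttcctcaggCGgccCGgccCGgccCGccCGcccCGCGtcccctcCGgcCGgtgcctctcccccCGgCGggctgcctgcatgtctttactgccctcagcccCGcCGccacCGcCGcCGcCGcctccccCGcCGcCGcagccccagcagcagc
Ybx2: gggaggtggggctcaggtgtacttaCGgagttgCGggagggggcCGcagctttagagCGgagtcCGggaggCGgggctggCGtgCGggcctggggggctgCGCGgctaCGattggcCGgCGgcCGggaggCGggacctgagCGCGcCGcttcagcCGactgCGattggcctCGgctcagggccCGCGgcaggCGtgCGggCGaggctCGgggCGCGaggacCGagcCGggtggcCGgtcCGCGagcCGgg
Pabpc1l: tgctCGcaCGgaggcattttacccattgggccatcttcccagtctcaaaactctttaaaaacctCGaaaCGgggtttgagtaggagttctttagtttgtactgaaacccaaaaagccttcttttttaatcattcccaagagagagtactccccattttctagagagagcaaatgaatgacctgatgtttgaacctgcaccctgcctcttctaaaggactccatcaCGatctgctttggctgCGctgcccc
Btg4: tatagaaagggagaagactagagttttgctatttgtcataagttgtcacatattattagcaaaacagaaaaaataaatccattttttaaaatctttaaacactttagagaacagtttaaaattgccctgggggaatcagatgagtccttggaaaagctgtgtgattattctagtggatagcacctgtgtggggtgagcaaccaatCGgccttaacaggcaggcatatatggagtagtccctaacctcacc

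These promoters held 34 (*Lsm14b*), 37 (*Cnot6l*), 35 (*Ybx2*), 6 (*Pabpc1l*) and 1 (*Btg4*) CG dinucleotides, against a median of 6 (quartiles 2 and 16) over all 32851 RefSeq promoters of that length. Of the remaining members, *Cpeb1* held 25, *Dazl* 20, *Zar1* 9 and *Patl2* 9. RefSeq entries were found for 9 of the 10 genes, with 12 starts in all, and *Cnot7* was not among them. The other starts of *Cnot6l* held 36 and 27 CGs and the other start of *Ybx2* held 29, and the most upstream start of each is shown. The E-box CANNTG, which reads the same on both strands, occurred in 10 of the 12 entries and in 66.2% of all promoters. The homeobox motif TAATTG, searched on both strands, occurred in 0 of the 12 entries and in 7.17% of all promoters.

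Few of the 75 windows passed the test between the genotypes. At an adjusted p under 0.05 in limma, fitted over all 544879 windows, H3K4me3 fell in 2 of the 75 windows, 1 in *Lsm14b* and 1 in *Cnot6l*, and 0.454% of all windows were called as losses (1.02% in either direction). It rose in 0 of the 75, against 0.563% of all windows. At an unadjusted p under 0.05, 7 windows were lower and 2 higher in cKO, where 8.12% of all windows were lower and 6.82% higher at that limit. edgeR on the reads behind the values called 0 of the 75 in either direction, with 1 at an unadjusted p under 0.05, where it called 2.29% of 503726 windows and had 13.2% at the unadjusted limit. These reads are not corrected for the enrichment of a library.

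The cKO mean lay below the WT mean in 46 of the 75 windows and above it in 29. The median difference was −0.11 normalized RPKM, and −0.10 over all windows. The 3 cKO libraries all lay below the 3 WT libraries in 8 windows (10.7%, background 9.95%), and above in 4 (5.33%, background 9.88%). The marked windows were few, with 23 at a mean over the 6 libraries of 3 normalized RPKM or more, and 15 of these (65.2%) had the lower mean in cKO, beside 53.4% of the 117065 windows of the genome at that level. Another 44 windows had a WT mean under 2, and among them the lowest adjusted p was 0.380.

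**Figure D1:**
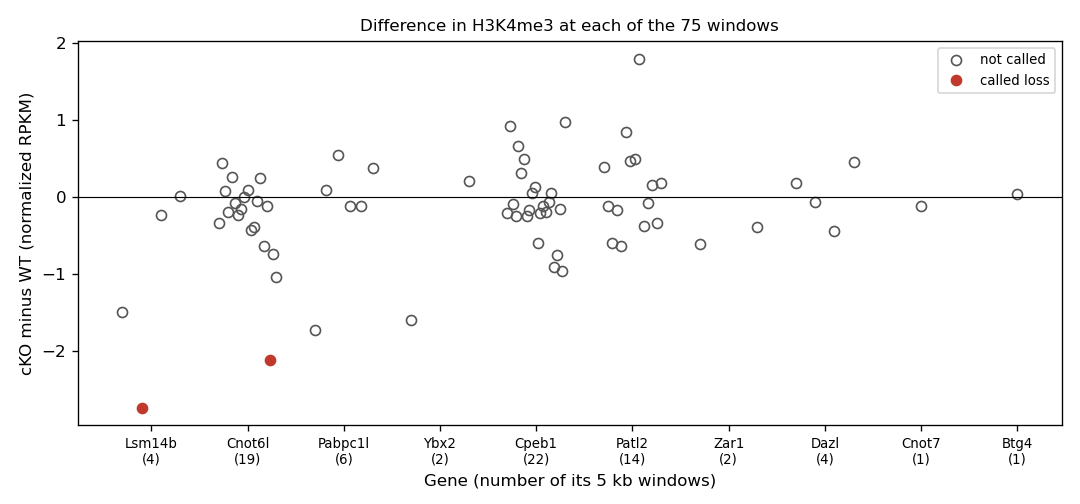
Difference in H3K4me3 (cKO mean minus WT mean, normalized RPKM, vertical axis) at each of the 75 windows, by gene (horizontal axis, with the number of windows) and in genomic order within a gene. Filled points are the 2 windows with an adjusted p under 0.05, in *Lsm14b* (−2.73) and *Cnot6l* (−2.12), and most of the other points lie close to 0.

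*Lsm14b* encodes an RNA-binding protein of the repressive RNP particles of the oocyte, and its 5′ end had the largest difference of all 75 windows. The window chr2:180025001-180030000 (GRCm38), which begins 14 bases inside the gene and holds 4 stretches of its exons, had 3.50, 4.40 and 4.22 normalized RPKM in cKO replicates 1, 3 and 4. The WT replicates 1, 2 and 4 had 7.09, 7.36 and 5.87. All 3 cKO libraries were below all 3 WT libraries, and the mean fell from 6.77 ± 0.790 to 4.04 ± 0.474 (SD, n = 3), a difference of −2.73 (SE 0.459, limma adjusted p = 0.0325). It held 49, 41 and 102 reads in the cKO libraries and 120, 76 and 186 in the WT libraries.

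The neighbouring window chr2:180020001-180025000 holds the start of *Lsm14b* and 14 bases of its first exon. This window had 5.94, 5.98 and 6.34 normalized RPKM in cKO and 7.93, 6.58 and 8.24 in WT. The genotypes did not overlap here either, with a difference of −1.49 (SE 0.456) that did not pass the threshold (adjusted p = 0.152). The other two windows were weakly marked, and the largest difference above 0 was 0.0047 at chr2:180035001-180040000 (1.45 in both genotypes). The mean over all 4 windows was 3.21 ± 0.152 in cKO and 4.32 ± 0.253 in WT (exact permutation test, p = 0.1, the smallest that 3 against 3 libraries can give). The called window kept an adjusted p under 0.05 in 4 of 14 other settings (range 8.78e-06 to 0.441). The lowest came from limma with a block for the replicate number, a pairing that the labels do not give. The next lowest was 0.0181, from limma with an intensity trend. Leaving out any of WT replicates 1, 2 and 4 or cKO replicates 3 and 4 ended the call (adjusted p = 0.0585 to 0.125), and leaving out cKO replicate 1 did not (0.0352).

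*Ybx2* encodes MSY2, the abundant Y-box protein that binds and stabilises stored mRNA in germ cells. The window of its start, chr11:69935001-69940000, had 5.22, 6.77 and 6.05 normalized RPKM in cKO and 6.98, 7.94 and 7.91 in WT. Each cKO library was below each WT library, and the difference of −1.60 (SE 0.467) did not pass the threshold (limma adjusted p = 0.136). The second *Ybx2* window, chr11:69940001-69945000, had 2.89 ± 0.970 in cKO and 2.68 ± 0.130 in WT. The mean over both windows was 4.45 ± 0.851 in cKO and 5.15 ± 0.337 in WT (exact permutation test, p = 0.4), a difference of −0.70 that was −0.33 without cKO replicate 1 and −1.16 without cKO replicate 3.

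*Zar1* encodes an oocyte zinc-finger protein that binds stored mRNA, and its 2 windows were both lower in cKO by small amounts. The window of its start, chr5:72580001-72585000, had 4.11, 3.61 and 3.59 normalized RPKM in cKO and 3.95, 4.15 and 4.41 in WT, with overlapping libraries (difference −0.40, SE 0.344, adjusted p = 0.555). The downstream window, chr5:72575001-72580000, had 2.85 ± 0.265 in cKO and 3.46 ± 0.655 in WT. Averaged over both windows, the 3 cKO libraries (3.34, 3.34 and 3.25) lay below the 3 WT libraries (4.00, 3.86 and 3.58), which gave the smallest exact permutation p of this design, 0.1.

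*Patl2* encodes an oocyte-specific RNP protein linked to mRNA repression, and it was the most evenly marked of the longer genes, with 10 of its 14 windows at a WT mean of 3 or more. The window of its start, chr2:122185001-122190000, also holds the start of *Terb2*. It had 4.22, 4.93 and 4.27 normalized RPKM in cKO and 4.47, 4.15 and 4.26 in WT, and the libraries overlapped (difference 0.18, SE 0.351, adjusted p = 0.814). The largest increase of the 75 windows lay 23.7 kb inside the gene, at chr2:122160001-122165000, a window with no exon of *Patl2* that also holds the start of *Trim69*. It had 5.39, 6.38 and 6.05 in cKO and 4.11, 3.56 and 4.77 in WT. The genotypes did not overlap, and the difference of 1.79 (SE 0.425) missed the threshold (adjusted p = 0.0784). Without cKO replicate 1 it passed (adjusted p = 0.0403), and without each of the other libraries it did not (up to 0.232).

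Another window of *Patl2*, chr2:122145001-122150000, holds the start of *B2m*, the light chain of MHC class I. It had 5.34 ± 0.425 in cKO and 4.51 ± 0.127 in WT (difference 0.84, SE 0.354, limma adjusted p = 0.302). The highest WT mean of the gene was at chr2:122155001-122160000, with 5.19 ± 0.523 in cKO and 4.70 ± 0.279 in WT. The largest difference below 0 was −0.64 at chr2:122140001-122145000 (3.29 ± 1.34 in cKO and 3.93 ± 0.332 in WT). Over the 14 windows, 7 were lower and 7 higher in cKO, and the mean was 3.58 ± 0.172 in cKO and 3.44 ± 0.0477 in WT (exact permutation test, p = 0.3).

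*Cpeb1* encodes the protein that binds the cytoplasmic polyadenylation element of stored mRNAs and switches them from repression to activation. Its start lies at a window border, and the annotations place it on either side. The CpG-rich window chr7:81450001-81455000, with 218 CpGs and the RefSeq start, had 3.78, 3.34 and 3.40 normalized RPKM in cKO and 4.995, 4.05 and 4.38 in WT. The cKO libraries were all below the WT libraries (difference −0.97, SE 0.371, limma adjusted p = 0.251). The upstream window chr7:81455001-81460000, with 64 CpGs, the GENCODE start and the start of the antisense *Cpeb1os1*, went the other way in its means. It had 3.84, 2.68 and 4.89 in cKO and 3.32, 2.01 and 3.18 in WT (difference 0.97, SE 0.573, adjusted p = 0.483), with overlapping libraries. Its difference was 0.42 without cKO replicate 4, 0.55 without WT replicate 2 and 1.53 without cKO replicate 3. Of the 22 windows, 16 had a WT mean under 2, and the mean over all 22 was 1.65 ± 0.115 in cKO and 1.71 ± 0.0126 in WT (exact permutation test, p = 0.4).

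*Dazl* encodes a germ cell protein that activates translation during maturation. The window of its start, chr17:50290001-50295000, had 5.61, 2.95 and 5.67 normalized RPKM in cKO and 4.63, 4.05 and 4.17 in WT. cKO replicate 3 was below all WT libraries and the other two cKO libraries were above them, so the mean difference of 0.46 (SE 0.655, limma adjusted p = 0.736) was smaller than the spread within cKO. The remaining 3 windows had WT means under 2, and the lowest difference was −0.44 at chr17:50285001-50290000 (0.632 ± 0.403 in cKO and 1.08 ± 0.0869 in WT). The mean over the 4 windows was 2.07 ± 0.329 in cKO and 2.04 ± 0.172 in WT (exact permutation test, p = 0.9).

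*Pabpc1l* encodes the poly(A)-binding protein of oocytes and early embryos, ePAB. Only the window of its start, chr2:164025001-164030000, was at 3 or more in WT, and it had 3.45, 1.76 and 3.54 normalized RPKM in cKO and 4.73, 4.93 and 4.29 in WT. The libraries did not overlap, and the difference of −1.73 (SE 0.496) did not pass the threshold (limma adjusted p = 0.129). In cKO replicate 3 the window held 21 reads, close to the 20 of that library's median window, and without this library the difference was −1.15. Among the other 5 windows the largest increase was 0.54, at chr2:164035001-164040000 (1.66 ± 0.343 in cKO and 1.12 ± 0.373 in WT). The mean over the 6 windows was 1.55 ± 0.139 in cKO and 1.71 ± 0.178 in WT (exact permutation test, p = 0.4).

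*Btg4* encodes the adaptor that brings the CCR4-NOT deadenylase to maternal mRNA at maturation. Its RefSeq start lies in the sole window that carried its name, chr9:51115001-51120000, which had 5.33, 5.72 and 6.05 normalized RPKM in cKO and 5.47, 5.90 and 5.64 in WT. The means were 5.70 ± 0.360 and 5.67 ± 0.218, with interleaved libraries (difference 0.034, SE 0.350, limma adjusted p = 0.970). GENCODE places the 5′ end of the gene upstream, in the window chr9:51060001-51065000, which the table assigned to *Layn*. This window had 2.67, 1.49 and 4.22 in cKO and 1.80, 1.91 and 2.55 in WT (adjusted p = 0.551).

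*Cnot6l* encodes a catalytic deadenylase subunit of CCR4-NOT that acts in the oocyte. Its start window, chr5:96160001-96165000, had the highest WT level of the 10 starts and 281 CpGs, with 5.998, 6.91 and 7.11 normalized RPKM in cKO and 8.13, 7.94 and 7.07 in WT. cKO replicate 4 was slightly above WT replicate 4, and the difference of −1.04 (SE 0.433) did not pass the threshold (limma adjusted p = 0.291).

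The second called loss lay inside *Cnot6l*, at chr5:96150001-96155000, centred 11.7 kb downstream of the start, in a window with no exon of the gene and 15 CpGs. It had 3.72, 2.29 and 2.72 normalized RPKM in cKO and 4.89, 5.31 and 4.89 in WT. No library overlapped, and the mean fell from 5.03 ± 0.246 to 2.91 ± 0.738, a difference of −2.12 (SE 0.423, limma adjusted p = 0.0497). The window stayed under the threshold in 3 of 14 other settings (adjusted p from 0.0132 to 0.442). The lowest again came from limma with the block for the replicate number. Leaving out any of WT replicates 1, 2 and 4 or cKO replicates 3 and 4 ended the call (0.0982 to 0.168), and leaving out cKO replicate 1 did not (0.0210).

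Most of *Cnot6l* was weakly marked, with 16 of its 19 windows under 2 in WT. The largest increase was 0.44 at chr5:96075001-96080000 (1.38 ± 0.221 in cKO and 0.947 ± 0.173 in WT). The window chr5:96120001-96125000 held 0 to 4 reads in each H3K4me3 library and 2 to 4 in each input library, too few for a comparison. The mean over the 19 windows was 1.45 ± 0.261 in cKO and 1.73 ± 0.149 in WT (exact permutation test, p = 0.3).

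*Cnot7* encodes the other type of catalytic deadenylase in the complex. The window of its start, chr8:40515001-40520000, had 4.83, 4.27 and 3.06 normalized RPKM in cKO and 4.89, 2.98 and 4.65 in WT. The libraries of the genotypes were interleaved (difference −0.12, SE 0.590, limma adjusted p = 0.934). Another annotated transcript start of *Cnot7* lies in the next window downstream, which the table assigned to *Zdhhc2*. That window had 5.26 ± 0.396 in cKO and 4.63 ± 0.789 in WT (difference 0.63, SE 0.449, adjusted p = 0.491).

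**Figure D2:**
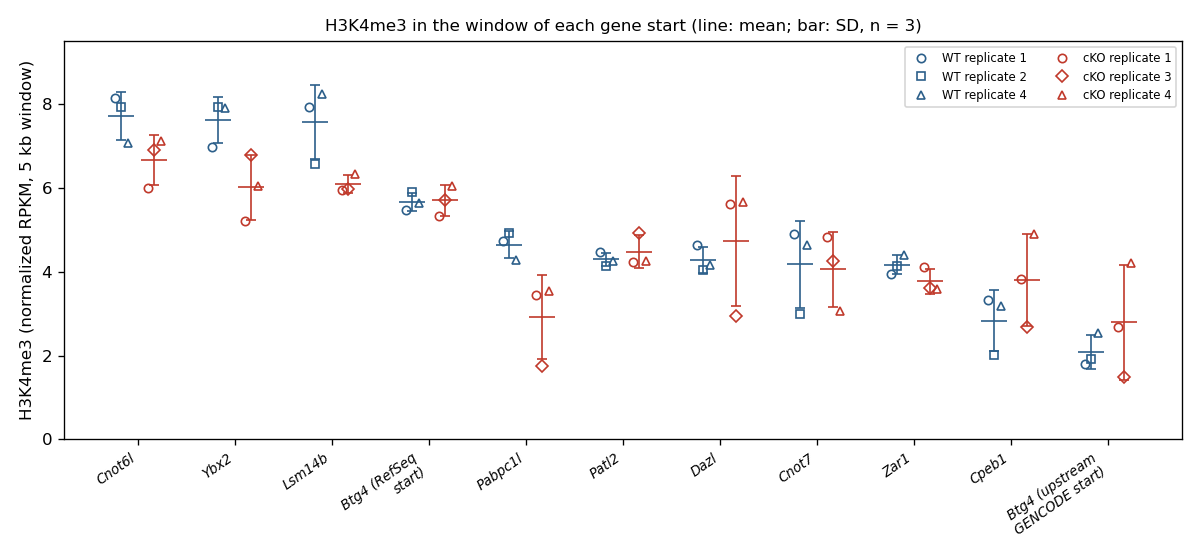
H3K4me3 (normalized RPKM, vertical axis) in the 5 kb window of each gene start, in descending order of the WT mean, with each library as a symbol, the mean as a line and the SD (n = 3) as a bar, for WT (blue) and cKO (red). *Cnot6l*, *Ybx2* and *Lsm14b* stand near 7.6 in WT, all 3 cKO libraries lie below the WT libraries at *Ybx2*, *Lsm14b* and *Pabpc1l*, and the 2 windows of *Btg4* are shown apart.

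Side by side, the 10 start windows fell into levels in WT oocytes, in values per kb of equal windows. *Cnot6l* (7.72 ± 0.565), *Ybx2* (7.61 ± 0.545) and *Lsm14b* (7.58 ± 0.883) did not differ beyond their spread, and stood at percentiles 99.2, 99.1 and 99.03 of the start windows of all genes. At its RefSeq start, *Btg4* (5.67 ± 0.218) came next, with every WT library below the lowest of these 3 genes and above the highest of *Pabpc1l* (4.65 ± 0.328). *Patl2* (4.29), *Dazl* (4.28), *Cnot7* (4.17) and *Zar1* (4.17) overlapped *Pabpc1l* and each other. The places of *Btg4* and *Cpeb1* depended on the annotation. The window of the GENCODE start of *Btg4* was at 2.09 ± 0.402, the lowest of all, and that of *Cpeb1* at 2.84 ± 0.721, whereas the RefSeq start of *Cpeb1* was at 4.47 ± 0.480, among the middle genes. The 3 highest windows and *Dazl*, *Zar1* and the CpG-rich *Cpeb1* window had between 136 and 281 CpGs. *Pabpc1l*, *Patl2*, *Cnot7* and the *Btg4* RefSeq start had 86, 58, 38 and 43, at WT levels like those of *Dazl* and *Zar1* or higher.

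None of the 10 start windows passed the threshold in limma, and 4 had an unadjusted p under 0.05, all lower in cKO (*Cnot6l*, *Ybx2*, *Lsm14b* and *Pabpc1l*). Of the 48576 start windows of all genes, 0.638% were called as losses, 0.896% as gains, and 8.86% were lower at that unadjusted limit. edgeR also called none of the 10, with 0 at an unadjusted p under 0.05 (1.85% and 10.4% of the start windows of all genes). The genotypes did not overlap in 3 of the 10, where the cKO libraries were all below those of WT (background 9.38%), and cKO was above in this way in 0 (background 12.7%). The median difference was −0.26 normalized RPKM, beside −0.013 for the start windows of all genes.

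**Figure D3:**
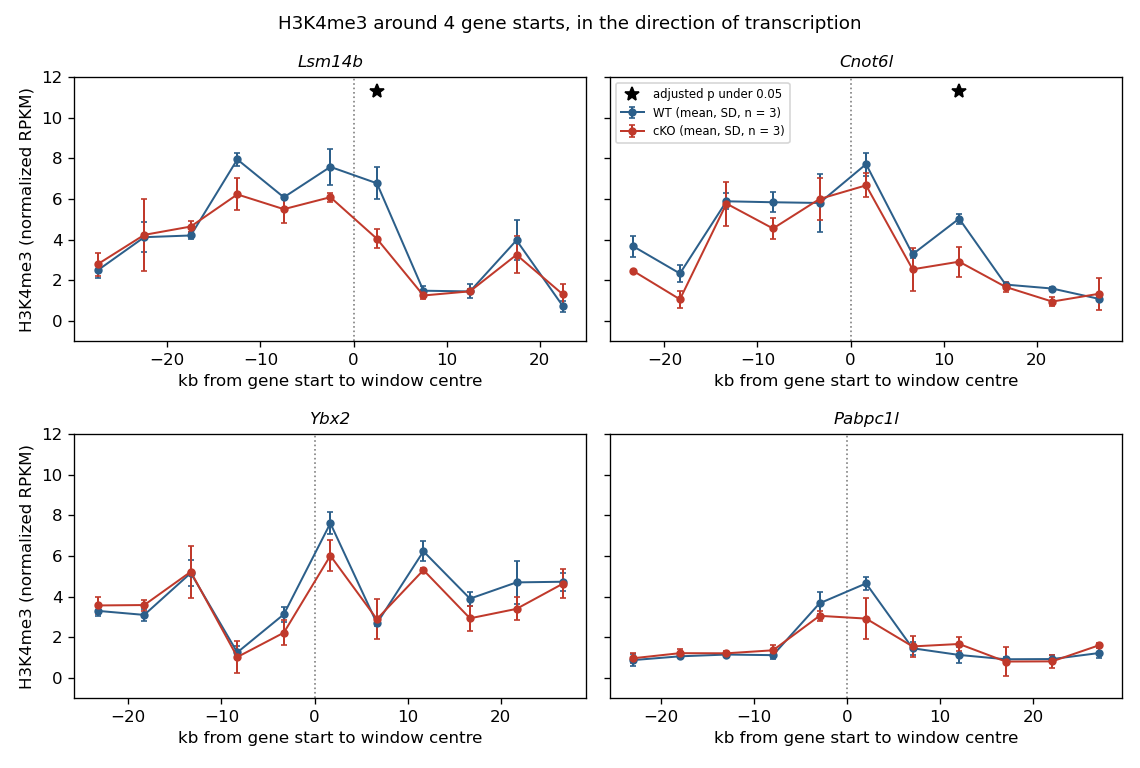
H3K4me3 (normalized RPKM, vertical axis) in 5 kb windows around the starts of *Lsm14b*, *Cnot6l*, *Ybx2* and *Pabpc1l*, by distance in kb from the gene start to the window centre in the direction of transcription (horizontal axis), as mean and SD (n = 3) for WT (blue) and cKO (red). Stars mark windows with an adjusted p under 0.05, which include the window 2.51 kb inside *Lsm14b* and the window 11.7 kb inside *Cnot6l*.

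Reads over input, which are not corrected for the enrichment of a library, were lower in cKO than in WT at both called windows and at the starts of *Lsm14b*, *Cnot6l*, *Ybx2* and *Pabpc1l*. They were computed as RPM (reads scaled to the size of the library) in the H3K4me3 library over the mean RPM of the 2 inputs of its genotype, with no test. The called *Lsm14b* window was 1.80 ± 0.106 over input in cKO and 3.77 ± 0.914 in WT (SD, n = 3), and the called *Cnot6l* window 1.41 ± 0.533 and 2.42 ± 0.306. The start windows had 2.66 ± 0.541 and 5.17 ± 1.25 at *Cnot6l*, 2.67 ± 0.3997 and 5.05 ± 0.495 at *Ybx2*, 2.50 ± 0.670 and 4.14 ± 1.04 at *Lsm14b*, and 1.23 ± 0.437 and 2.26 ± 0.394 at *Pabpc1l*. At the *Btg4* RefSeq start they were 2.43 ± 0.524 in cKO and 2.92 ± 0.365 in WT. *Patl2* (1.66 and 2.60), *Dazl* (1.97 and 2.24), *Cnot7* (1.83 and 2.28) and *Zar1* (2.63 and 3.22) were also lower in cKO by this measure, although the normalized means of *Btg4*, *Patl2* and *Dazl* were higher there. With the inputs of replicate 4 alone, *Cnot7* (2.58 in cKO and 2.21 in WT) and *Dazl* (2.17 and 2.12) turned, and with those of replicate 1 alone *Zar1* was at 2.72 and 2.75. At the GENCODE starts of *Cpeb1* (1.92 and 1.28) and *Btg4* (1.45 and 1.10) the ratio was higher in cKO. At the called *Lsm14b* window, cKO replicates 1, 3 and 4 were at 1.92, 1.72 and 1.76 over input, and the WT libraries at 2.94 to 4.75. At the *Lsm14b* start, cKO replicate 1 was at 3.26, above WT replicate 2 (3.14), and cKO replicates 3 and 4 at 1.99 and 2.25. The part of the lower enrichment of cKO replicates 3 and 4 in these ratios was not tested.

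The other genes of the pathway were read at the windows of their starts from 5 lists of 87 genes in all, which leave out the 10 members. H3K4me3 rose at 2 of the 87 and fell at 2, beside the 0.896% and 0.638% of all start windows given above. At an unadjusted p under 0.05, 12 were higher and 17 lower in cKO (background 10.8% and 8.86%). All 3 cKO libraries were below the WT libraries in 18 (20.7%, background 9.38%) and above in 11 (12.6%, background 12.7%). The median difference over the 87 was −0.081 normalized RPKM. edgeR called 0 of the 87, with 0 at an unadjusted p under 0.05 (1.85% and 10.4% of the start windows of all genes).

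The largest loss was at *Pabpc4*, which encodes a cytoplasmic poly(A)-binding protein, at chr4:123260001-123265000. Its start window had 7.38, 5.59 and 6.20 normalized RPKM in cKO and 9.70, 10.4 and 9.41 in WT, with no overlap (difference −3.44, SE 0.491, limma adjusted p = 0.0223). *Igf2bp3*, an mRNA-binding protein of RNP granules, had 4.39, 3.74 and 2.96 in cKO and 5.73, 5.61 and 6.08 in WT at chr6:49210001-49215000 (difference −2.11, SE 0.418, adjusted p = 0.0489). Both genes were separated by genotype in every library.

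The gains were at *Msi2*, an RNA-binding regulator of translation, and *Zfp36l1*, a protein that binds AU-rich elements and promotes decay. *Msi2*, at chr11:88715001-88720000, a window that also holds the start of *C030037D09Rik*, had 5.998, 5.98 and 5.09 normalized RPKM in cKO and 3.37, 2.79 and 3.24 in WT (difference 2.56, SE 0.384, limma adjusted p = 0.0250). *Zfp36l1*, at chr12:80110001-80115000, had 6.61, 7.83 and 7.06 in cKO and 5.31, 4.54 and 3.75 in WT (difference 2.64, SE 0.479, adjusted p = 0.0393). The cKO libraries were all above the WT libraries at both. Leaving out any of WT replicates 1, 2 and 4 or cKO replicate 4 ended each of these 4 calls, with adjusted p up to 0.104 for *Pabpc4*, 0.188 for *Igf2bp3*, 0.110 for *Msi2* and 0.143 for *Zfp36l1*. Without cKO replicate 3 *Pabpc4* alone kept its call (0.0482), and without cKO replicate 1 all 4 did (0.0157 to 0.0279).

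By role, the 18 deadenylation genes had 0 calls (2 higher and 2 lower at an unadjusted p under 0.05) and a median difference of 0.20 normalized RPKM, and the 19 genes of decapping and exonuclease decay had 0 calls (4 higher, 0 lower) and a median of 0.31. The 15 genes of uridylation and mRNA recognition had 1 gain and 1 loss (2 higher and 4 lower at the unadjusted limit) and a median of −0.40. The 15 genes of cytoplasmic polyadenylation and poly(A) binding had 0 gains and 1 loss (0 higher and 4 lower at the unadjusted limit) and a median of −0.12. The 20 storage and repression genes had 1 gain and 0 losses (4 higher and 7 lower) and a median of −0.58. Of the start windows of all genes, 0.896% were gains and 0.638% losses. At the unadjusted limit 10.8% were higher and 8.86% lower, and the median difference was −0.013. The differences between the lists were not tested.

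**Figure D4:**
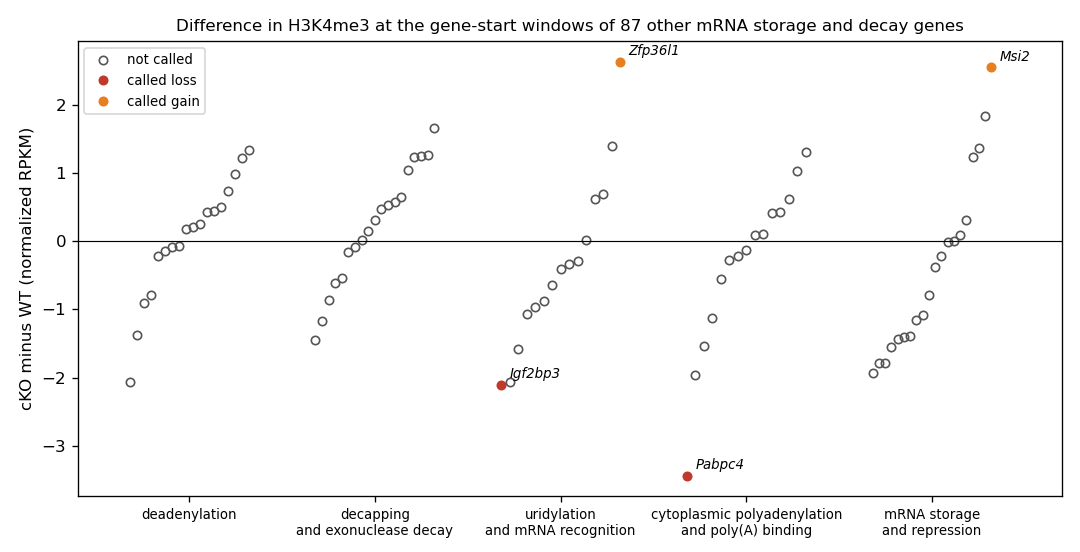
Difference in H3K4me3 (cKO mean minus WT mean, normalized RPKM, vertical axis) at the start windows of 87 other genes of mRNA storage and decay, in 5 lists (horizontal axis) and sorted by value within a list. Filled and named points passed an adjusted p under 0.05, with *Pabpc4* at −3.44, *Igf2bp3* at −2.11, *Msi2* at 2.56 and *Zfp36l1* at 2.64.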

How the data were processed

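H3K4me3 was measured in 6 libraries and input chromatin in 4 (N = 3 and 2 per genotype). Per the labels and methods, the authors trimmed reads (Trim Galore 0.4.2), mapped them to GRCm38 (Bowtie2 2.2.9), kept MAPQ of at least 20, left out windows with an input RPKM above 4 and excluded 1 poorly enriched library of each genotype, which is not analysed here. The deposited H3K4me3 values are a score, the enrichment-normalized RPKM per 5 kb window, and the deposited input values are a signal, the RPM of each window, not divided by length. Each H3K4me3 value was the library's value at 0 reads plus whole steps (100% of values, tolerance 0.001 reads), which gave whole reads. Reads are not independent molecules.

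The test was limma (version 3.58.1, R 4.3.3) on all 544879 windows (no intensity trend, no replicate block, two-sided, Benjamini-Hochberg over all windows, adjusted p under 0.05), after tests on simulated data. Means over the windows of a gene were compared by exact permutation. The alternatives were an intensity trend, log2(value + 1), log2(value + 0.1), quantile normalization, a mean of at least 1, log2(RPM + 0.5), edgeR 4.0.16 on whole reads (windows with at least 10), the replicate block, adjusted p under 0.01, each library left out, other transcript starts and single inputs. Starts came from GENCODE M21 (1 per gene) and RefSeq, and CpGs from GRCm38.p6. Other tools were scipy 1.17.1, matplotlib 3.10.9, pandas 2.3.3 and numpy 2.4.6 under Python 3.11.15. For each of the 10 genes the start window, the window with the highest WT mean, the largest increase and decrease and every called window are named, and of the pathway lists each called gene. The members and lists were chosen with earlier results of these data known. P-values measure only the spread between these pools.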

Additional observations from a re-analysis of the deposited data

How the results depend on the processing

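The number of called windows depended on the processing. Of the 75 windows, the intensity trend left 1 loss, and log2(value + 1), log2(value + 0.1), quantile normalization, log2(RPM + 0.5), edgeR and adjusted p under 0.01 left 0. The windows with an unadjusted p under 0.05 numbered 9 with the intensity trend, and 5, 4, 12, 4 and 1 in the first 5 settings that left 0. Leaving out a library gave 0 to 2 losses and 0 to 1 gains, and only without cKO replicate 1 did both losses pass and a gain appear. Over the 87 pathway genes these settings and edgeR gave 0 gains and 0 losses, except the intensity trend (2 and 2), and leaving out a library gave 0 to 3 gains and 0 to 5 losses (3 and 5 without cKO replicate 1, 0 and 1 without cKO replicate 3). Over all windows the main test called 3066 gains and 2473 losses, the intensity trend 8540 and 10952, edgeR 5369 and 6145, leaving out cKO replicate 1 9330 and 8649, and leaving out cKO replicate 3 1275 and 486, leaving out any WT library or cKO replicate 4 at most 1, quantile normalization 1 and 0, and log2(value + 1), log2(value + 0.1), log2(RPM + 0.5) and adjusted p under 0.01 0 and 0, so these settings left almost no call anywhere in the genome. At an unadjusted p under 0.05, the 3 log2 settings, quantile normalization and edgeR gave 73232, 57732, 64435, 90771 and 66326 windows. A mean of at least 1 kept 2 losses among the 75 windows and 2 gains and 2 losses among the 87 genes, and called 4015 and 3488 over all windows. The cause of these changes was not tested.

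The labels give numbers 1 and 4 to both genotypes without saying that they mark a shared day or animal, so in the labels the samples share only a number. The ratio of the 99th percentile to the median read number was 9.5 in WT and 9.82 in cKO for number 1. For number 4 it was 5.27 in WT and 3.30 in cKO. Over all windows, deviations from the group means correlated at 0.32 between the libraries numbered 1 and at 0.019 between those numbered 4. With the replicate block, 1 gain and 4 losses were called among the 75 windows (the added losses were the starts of *Lsm14b* and *Ybx2*), 6 gains and 10 losses among the 87 genes, and 13678 and 19755 over all windows. WT replicate 2 and cKO replicate 3 have no partner, so the difference in this fit came from numbers 1 and 4 alone. Its SE was the same (0.476) at these 2 starts and at both called windows, so it did not measure the spread of each window.

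The directions at the starts of *Lsm14b*, *Cnot6l*, *Ybx2*, *Pabpc1l* and *Zar1* held under every setting. Several others changed sign. With another transcript start, *Cnot7* was at 0.63 and *Cpeb1* at −0.97. On log2(RPM + 0.5), the starts of *Dazl* (−0.027), *Patl2* (−0.12) and *Btg4* (RefSeq, −0.20) reversed, as did the means over the windows of *Btg4* (−0.20), *Cnot6l* (0.090), *Cpeb1* (0.060), *Patl2* (−0.051) and *Pabpc1l* (0.18). edgeR reversed the starts of *Patl2* (−0.18) and *Btg4* (RefSeq, −0.24), the replicate block the start of *Patl2* (−0.12) and log2(value + 1) the *Dazl* mean (−0.069). Leaving out a library, which changed these signs, moved the start of *Btg4* from −0.0055 to 1.36 (RefSeq start and mean, −0.14 to 0.22), *Cnot7* from −0.72 to 0.38, the start of *Dazl* from −0.0045 to 1.36 and its mean from −0.083 to 0.22, and the start of *Patl2* from −0.047 to 0.30. With a single input per genotype, the order of the genotypes over input turned at the starts of *Cnot7* and *Dazl* and held at the other GENCODE starts.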
